A study of Mus musculus with 8 samples.

Results

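The sites described here are places on RNA where all 3 control lines of a Zmat3 crosslinking and immunoprecipitation (CLIP) experiment had a called peak and the Zmat3 knockout line had none. Called peaks of the 3 control lists over input were merged where they shared 1 nt or more of a strand, on the 19 autosomes, and a merged site belonged here if it held a peak of every control and touched no called knockout peak. The rule found 7390 such control-only sites among 22887 sites of all 3 controls, a share of 32.3%, and among 294564 merged autosomal sites of any control, a share of 2.51%. The other 15497 sites of all 3 controls, which also touched a knockout peak, are called shared sites and serve as the comparison. The sites were chosen by the positions and strands of called peaks in the lists over input, and the folds and p-values given below belong to those same peaks or reads, so they describe the sites and carry no test unless one is named.

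The knockout group was 1 line of Zmat3-/- mouse embryonic fibroblasts (MEFs) with 1 immunoprecipitate (IP) and 1 input. The control group was 3 lines of Cas9+ MEFs carrying a negative-control guide RNA named EV, SPA or ACOCA in the labels (controls 1 to 3), each with 1 IP and 1 input. All 4 lines had been transduced with the adenoviral oncogene E1A and with HrasG12V. The control lines were selected with puromycin for 3 days after the guide virus and cultured for another 10 days, whereas the labels give no guide and no puromycin step for the knockout line. Per the labels, cells were crosslinked, and RNA was recovered with an anti-Zmat3 antibody from the 35 to 110 kDa part of a gel. Guide, line origin and Zmat3 genotype therefore cannot be told apart with 1 knockout library, and less protein on an RNA cannot be told apart from less of that RNA in the knockout line.

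Zmat3 is a zinc finger protein that binds RNA, and its gene is a direct target of the tumour suppressor p53. Zmat3 has been described as a regulator of alternative splicing, with the p53 inhibitors Mdm2 and Mdm4 among the transcripts it acts on. In CLIP, ultraviolet light joins a protein to the RNA it touches; a size-matched input measures how much of the same RNA is present without antibody, and a knockout IP measures what the antibody brings down without its target.

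Sequence was available for the sites that lie on the strand of a RefSeq promoter window (250 bases before to 50 bases after a gene start, GRCm38.p6) or of a microRNA hairpin. At least 30 nt of 132 control-only and of 560 shared sites lay in such a window. The 30 nt in the middle of that stretch are shown for the 4 control-only sites of this set with the highest lowest-control fold over input, so that the letters can be read beside their values. Runs of U were the only feature searched for, and none of at least 5 lies in these stretches, so no letter is in capitals. They are written 5′ to 3′ in lower case as RefSeq gives the DNA strand of the RNA.
Dnm2, in the window of the long non-coding RNA Gm46104, chr9:21465508-21465537, plus strand: atgcatgacactgcatgtccttgtgtattc
Rbm4, chr19:4794108-4794137, minus strand: ttctagctccaccttcagatggacctcttg
Hoxb4, chr11:96318090-96318119, plus strand: tctgcgcacccgccttctagctcccgacgc
Mir6935 hairpin, chr11:120347379-120347408, minus strand: tgtgggaggctcagggcccctgctactcac

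The Dnm2 site, in the gene of the vesicle-scission GTPase dynamin 2, had log2 folds over input of 3.12, 5.06 and 3.60 in controls 1 to 3. The Rbm4 site, in the window at the start of a splicing regulator's gene, had 1.99, 3.90 and 1.82. The Rbm4 and Hoxb4 sites, of 138 and 111 nt, lay wholly in their windows. At most 50 nt of each can lie past the gene start, so most of both sites lay before it. At Hoxb4, a homeobox gene, the log2 folds over input were 3.77, 1.79 and 1.60, so control 1 was the highest there and control 2 at Dnm2 and Rbm4. The site at the Mir6935 hairpin had 1.90, 4.36 and 2.68 over input, again highest in control 2. Over all readable bases, G and C made up 71.4% at control-only sites and 71.9% at shared sites, and U made up 15.9% and 14.8%. A run of at least 5 U was found in 1 of the 132 control-only stretches (0.758%) and in 11 of the 560 shared stretches (1.96%). These windows lie at gene starts, so they do not describe the sites inside genes.

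MicroRNA hairpins were touched by 50 sites of all 3 controls, of which 7 were control-only (14.0%). Their mature microRNAs are shown where a control-only site covered the whole mature sequence, with the seed (bases 2 to 8), which pairs with target messages, in capitals; the letters and positions are those of RefSeq GRCm38.p6.
mmu-miR-3082-5p, chr17:25831406-25831427, minus strand: gACAGAGUgugugugucugugu
mmu-miR-7653-3p, chr11:78178866-78178887, plus strand: cCCCUACUguuccaccccgccu
mmu-miR-7648-5p, chr15:90224360-90224379, plus strand: cCGCGUUCcgggcucggcgc
mmu-miR-7648-3p, chr15:90224392-90224412, plus strand: aGGGCUGGgcccgggacgcgg
No seed was shared among these 4 mature microRNAs. The site over Mir3082 had log2 folds over input of 1.54, 1.77 and 1.18 in controls 1 to 3. Over Mir7648 the values were near input, at 0.19, 0.46 and 0.11, and over Mir7653 they were below input in every control, at −0.69, −0.35 and −0.40. The site at Mir7031 had 3.71, 3.77 and 4.45 over input, but it covered only 2 nt of the hairpin. A site that reached 15 nt into the hairpin of Mir30c-1 had 2.64, 2.82 and 2.92 over input, and its mean log2 fold over the knockout IP was 0.04, near 0 although no knockout peak was called there.

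As facts of the whole series, the lists over input held 167648 called peaks in the knockout and 129323, 153768 and 122284 in controls 1 to 3, covering 7661843 nt in the knockout against 7288582, 8211557 and 6150051 nt in the controls. The word enriched is used here for a log2 fold of 3 or more with a −log10 p-value of 3 or more. By that rule 0.317% of the knockout peaks and 1.03%, 1.06% and 0.497% of the control peaks were enriched over input. Fibroblast markers gave 102 called peaks in the knockout and 101, 105 and 82 in the controls, mostly in Fn1 and Vim and, with 2 in the knockout and 16, 12 and 10 in the controls, in Pdgfrb, with Col1a1, Col1a2, Thy1 and S100a4 at 0 in every library. Endothelial markers had 0 peaks in every library, muscle markers had 0 in the knockout and at most 1 in a control, and blood markers had 2 in the knockout and 1, 3 and 2 in the controls. Epithelial markers had 19 peaks in the knockout and 9, 10 and 12 in the controls. Neuronal markers had 0 in the knockout and 9, 8 and 4 in the controls, all in Map2, whose single site was control-only, and the part of such a difference between lines in the results was not tested.

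Most control-only sites were weak over input. Their median log2 fold over input was 0.90 in control 1, 0.60 in control 2 and 0.60 in control 3, which is 0.70 ± 0.17 (SD, n = 3 controls), against 0.31, 0.12 and 0.01 at shared sites, or 0.15 ± 0.15. Control-only medians were the higher in each of the 3 controls, by 0.55 ± 0.06. They were also equal to the medians over all called autosomal peaks of the same library, while the medians at shared sites were lower. These measures are unlike, since a site takes the highest fold of its overlapping peaks. The folds also take few distinct values, as given below, so equal medians can be a shared recurring value. With knockout peaks above input alone counted as knockout peaks, the order turned, at 0.19 in control-only and 0.70 in shared sites. All 3 controls lay above input at 3923 control-only sites (53.1%) and at 4951 shared sites (31.9%).

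Against the knockout IP the separation was larger. The deposited log2 folds of this comparison run control over knockout, and their medians at control-only sites were 1.60, 1.41 and 1.58 in controls 1 to 3, or 1.53 ± 0.10, against 0.45, 0.30 and 0.32, or 0.35 ± 0.08, at shared sites. All 3 controls exceeded the knockout IP at 6786 control-only sites (91.8%) and at 7185 shared sites (46.4%). The 3 comparisons share the single knockout library, so their SD leaves out the spread between knockout samples. A low knockout signal is also close to what the rule selects, and no test was made. The median −log10 p-value over the knockout IP was 0.77, 0.74 and 0.67 at control-only sites, below the threshold of 3 in each control.

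**Figure D1:**
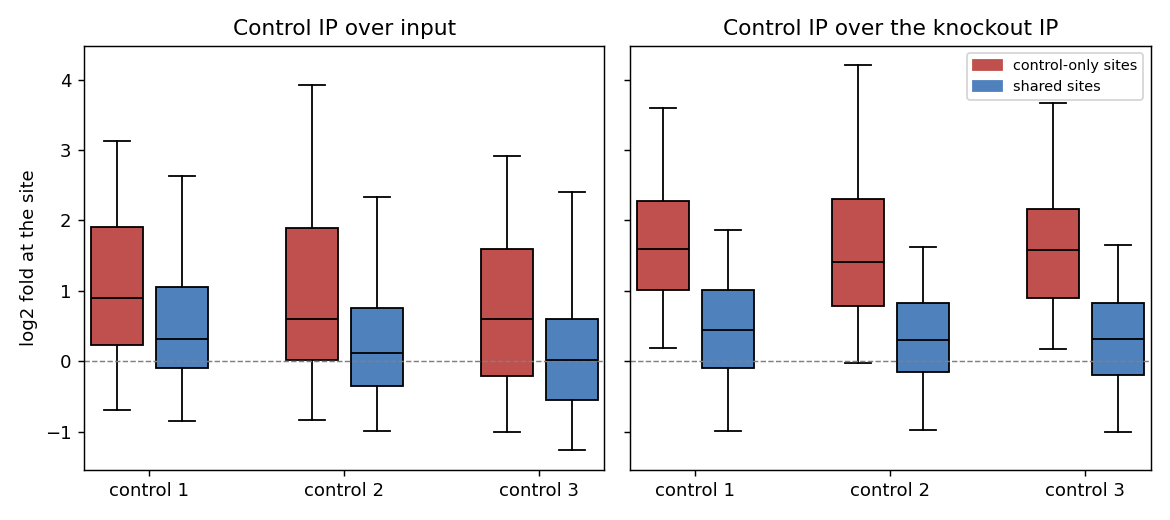
Log2 fold of each control IP over input (left) and over the knockout IP (right) at the 7390 control-only sites (red) and the 15497 shared sites (blue); boxes span the quartiles with the median as a line, and whiskers reach from the 5th to the 95th percentile of sites. The control-only boxes lie higher in every control, and the gap between the medians is 0.55 against input and 1.18 against the knockout.

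The folds of these sites take few distinct values. Over the 7390 control-only sites only 424, 513 and 344 distinct log2 folds over input occurred in controls 1 to 3, and the 10 commonest held 45.3%, 37.0% and 52.0% of the sites. The 2 folds of a control at a site were also tied: the fold over the knockout IP exceeded the fold over input by the same amount, within 0.002, at 1240 sites in control 1, at 1229 sites in control 2 and at 1465 sites in control 3. Those amounts were 0.285, 0.281 and 0.986, and the sites holding them made up 16.8%, 16.6% and 19.8% of control-only sites, against 5.83%, 6.24% and 6.29% of shared sites. At these sites 1 of the 2 folds follows from the other. The lists hold no read counts, so the cause was not tested.

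Membership was also taken from 2 controls and the knockout, and the control left out was then looked up at those sites. It had a peak at 43.5%, 47.7% and 40.0% of the control-only sites for controls 1 to 3, against 73.0%, 76.0% and 69.1% of the shared sites, so in every control a peak recurred at a smaller share of control-only sites. Across control-only sites, the folds over input of a pair of controls correlated with Pearson's r of 0.61 to 0.67, over 7390 sites that the controls share by construction.

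Enriched control-only sites were few. All 3 controls were enriched over input at 80 control-only sites (1.08%) and at 132 shared sites (0.852%), where 0.926% of all sites of the 3 controls were called. A single control was enriched at 541 control-only sites, and control 2 accounted for 455 of them. Per control, 235, 664 and 146 control-only sites were enriched over input in controls 1 to 3, against 446, 311 and 274 shared sites; over all sites of the 3 controls 2.98%, 4.26% and 1.84% were called. Control 2 thus exceeded the other controls at control-only sites but not at shared sites. No control was enriched at 6637 control-only sites.

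Over the knockout IP, all 3 controls were enriched at 201 control-only sites (2.72%) and at 12 shared sites, where 0.931% of all sites were called. The count per control was 412, 848 and 455 control-only sites against 41, 53 and 32 shared sites, beside 1.98%, 3.94% and 2.13% of all sites. Enrichment over both comparators in all 3 controls was found at 70 control-only and 5 shared sites, beside 0.328% of all sites. At 28, 17 and 23 of those 70 sites in controls 1 to 3, and at 6, 4 and 5 of the 20 strongest sites described below, the 2 folds differed by the fixed amounts given above. The 70 sites were 87.5% of the control-only sites enriched over input in every control, and the 5 were 3.79% of the corresponding shared sites. At the other 127 shared sites enriched over input in every control, the knockout IP had a median log2 fold over input of 3.73 (quartiles 2.86 and 4.43) and reached 3 at 90 of them. At the 5 that were enriched over both, it was −0.03.

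**Figure D2:**
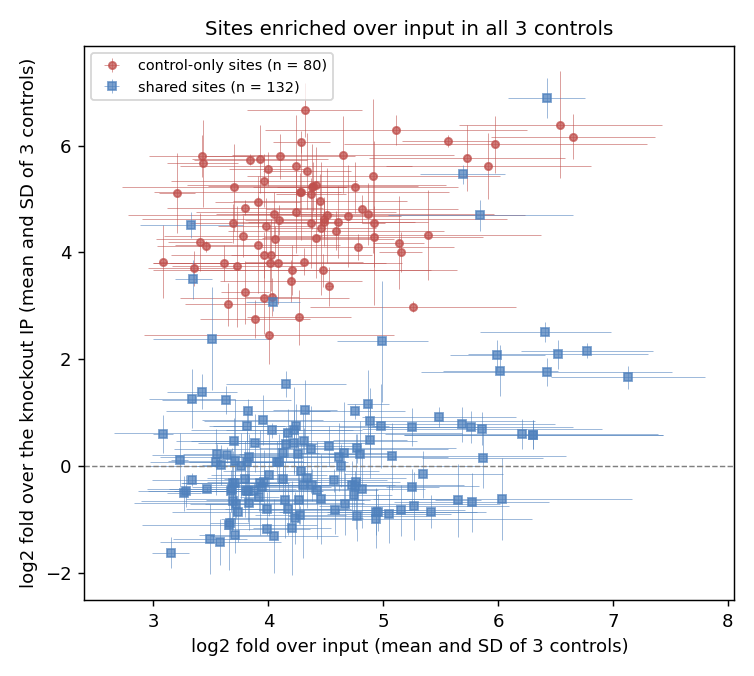
Mean log2 fold of the 3 controls over the knockout IP against mean log2 fold over input for the 80 control-only sites (red circles) and 132 shared sites (blue squares) enriched over input in all 3 controls; bars are the SD over controls and the dashed line marks equal control and knockout IP. Most control-only sites lie above a log2 fold of 3 on the vertical axis, and most shared sites lie near 0, with 5 exceptions.

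The strongest control-only sites, ranked by the lowest log2 fold over input of the 3 controls with 1 site per gene, all lay in protein-coding genes. In the first, Pck2 (chromosome 14, 55547530–55547656, plus strand), the gene of mitochondrial phosphoenolpyruvate carboxykinase, the log2 fold over input was 6.65, 7.36 and 5.94 in controls 1 to 3. Over the knockout IP it was 5.94, 6.65 and 5.92, and the nearest knockout peak was 77 nt away. All controls were high in both comparisons. The median of the other called peaks of Pck2 was also higher over the knockout IP than the library's median peak, by 1.83, 1.61 and 1.32 in controls 1 to 3. These medians rest on 19, 14 and 17 peaks, and 6 of the 9 sites of Pck2 were control-only. In Cltc, the next gene, the corresponding differences were −1.65, −0.58 and −1.05.

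Cltc encodes the clathrin heavy chain, the coat of endocytic vesicles. Its site (chromosome 11, 86695730–86695843, minus strand) had 5.52, 7.11 and 6.99 over input and 5.39, 7.40 and 6.39 over the knockout IP. Control 1 was the lowest in both, and a knockout peak began 50 nt away. Dnm2, above, is a partner of clathrin in vesicle release, and its site was enriched over input in only 1 control by the rule, since the p-value missed the threshold in the others.

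Pogz, which encodes a zinc finger protein of heterochromatin, held a site at chromosome 3, 94869905–94870050, on the plus strand, with 5.50, 6.93 and 5.30 over input and 5.35, 6.33 and 5.17 over the knockout IP. Gnpat, an enzyme of ether lipid synthesis in peroxisomes, had 5.67, 5.90 and 5.12 over input and 5.96, 6.18 and 6.11 over the knockout IP at chromosome 8, 124885599–124885764, plus strand. The controls were close to each other at Gnpat, and the nearest knockout peak was 1354 nt away. Bcat1, the cytosolic enzyme that starts the breakdown of branched-chain amino acids, had 5.36, 5.10 and 4.99 over input at chromosome 6, 145010182–145010322, minus strand. Its folds over the knockout IP were lower, at 3.64, 4.38 and 3.98.

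RNA-processing genes were among the next. Dgcr8, the partner of Drosha in microRNA processing, had 4.96, 4.80 and 4.99 over input at chromosome 16, 18284727–18284834, minus strand, but 2.92, 4.76 and 5.98 over the knockout IP. The controls were close to each other against input and far apart against the knockout, where control 1 missed the threshold. Raver1, a co-regulator of the splicing repressor Ptbp1, had the smallest spread of the 20 sites, 4.53 ± 0.03 over input (4.56, 4.50 and 4.53; chromosome 9, 21079875–21080023, minus strand), and 3.11, 3.78 and 3.19 over the knockout IP. Ddx1, an RNA helicase, had 4.12, 4.72 and 4.30 over input and 5.23 ± 0.80 (SD, n = 3) over the knockout IP at chromosome 12, 13245035–13245193, minus strand.

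Aurkb, the mitotic kinase Aurora B, had 4.84, 5.06 and 4.18 over input and 5.12, 5.34 and 3.58 over the knockout IP (chromosome 11, 69050147–69050291, plus strand); a knockout peak lay 7 nt away. Numb, an endocytic adaptor that inhibits Notch, had 4.84, 6.52 and 4.81 over input and 3.54, 5.22 and 4.21 over the knockout IP. Usp34, a deubiquitinase, had 5.22, 5.30 and 4.88 over input and 3.51, 5.17 and 3.87 over the knockout IP. Control 2 was the highest at all 3 of these sites in both comparisons. Further sites of the first 20 lay in C2cd5, Prune2, Slc43a3, Litaf, Ankhd1, Dcaf8, Ankrd17 and Ptpn12, the last a protein tyrosine phosphatase of focal adhesions. Over the 20, the mean log2 fold ranged from 4.29 to 6.65 over input and from 2.98 to 6.39 over the knockout IP. Over the knockout IP, 18 were enriched in all 3 controls, with Dgcr8 and Prune2 as the exceptions, and control 2 was the highest at 19 of them. A called knockout peak lay within 200 nt of 14 of the 20 sites.

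**Figure D3:**
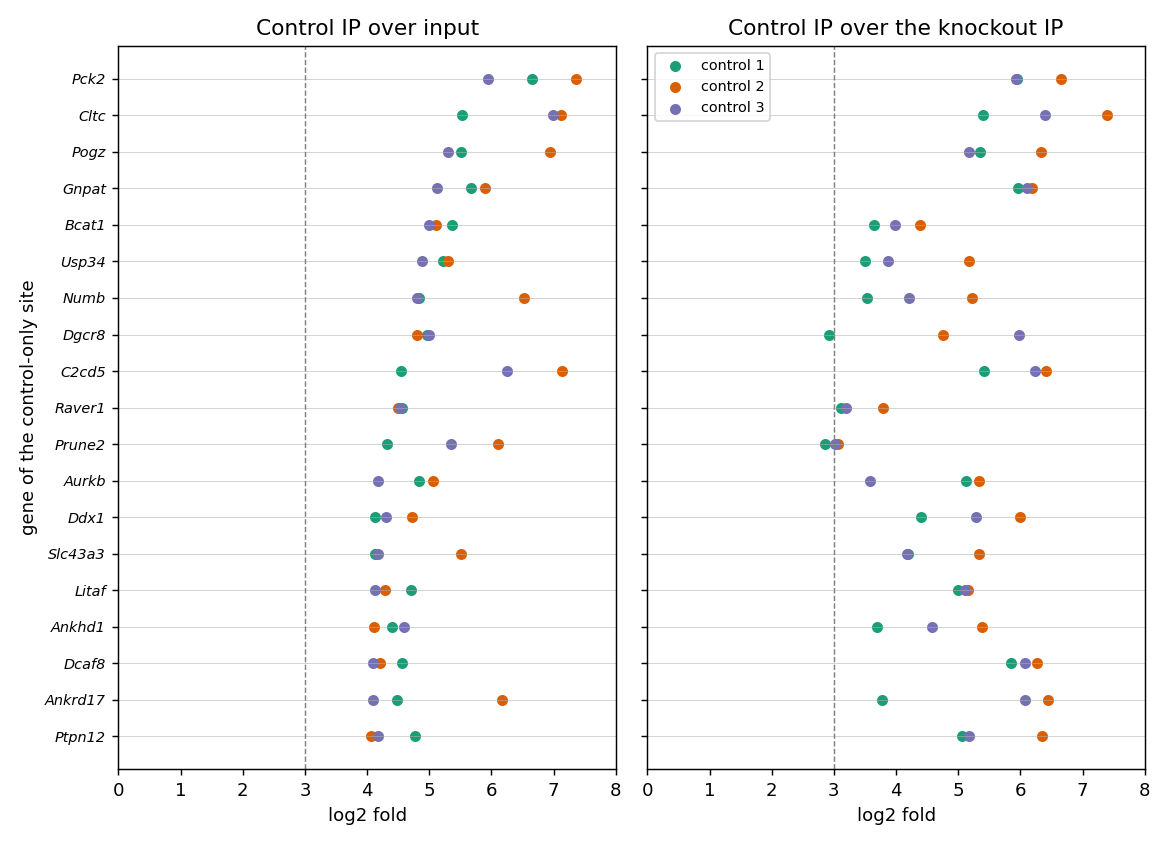
Log2 fold of each control over input (left) and over the knockout IP (right) at 19 of the 20 control-only sites with the highest lowest-control fold over input, 1 row per gene; the dashed line marks a log2 fold of 3. All points of the left panel lie above 4, and on the right control 1 is below 3 at Dgcr8 and Prune2.

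Absence of a called knockout peak did not mean absence of knockout peaks nearby. The median gap between a control-only site and the nearest knockout peak on the same strand was 352 nt (quartiles 112 and 1148 nt). It was at most 50 nt at 882 sites (11.9%), at most 1000 nt at 5352 sites (72.4%) and over 10000 nt at 277 sites (3.75%). At shared sites knockout peaks covered a median of 62.6% of the site and under 50% of it at 5245 sites (33.8%). Knockout peaks at shared sites were themselves mostly below input, with a median log2 fold of −0.35 (quartiles −1.03 and 0.38).

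Sites just inside and just outside the rule resembled each other. The 83 control-only sites with a gap of 1 to 5 nt had median log2 folds over input of 0.52, 0.43 and 0.33, and the 103 shared sites with an overlap of 1 to 5 nt had 0.58, 0.26 and 0.33. Over the knockout IP the medians were 1.09, 0.93 and 1.00 just inside and 1.18, 0.74 and 0.81 just outside. Among the nearest inside, the site in Gtse1, a p53 target active in G2, adjoined a knockout peak and had 2.31, 3.25 and 2.40 over input, and those in Rnf169 and Tmem241 adjoined one too. Among the nearest outside, the Tec site had 1.90, 2.82 and 1.92 over input while the knockout peak that touched it had 0.65. The R3hdm2 and Cmip sites lay outside by the same margin, with knockout folds over input of 1.11 and 0.97.

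Control-only sites were shorter than shared ones, with a median of 98 nt (quartiles 76 and 127) against 116 nt (86 and 157). The share of control-only sites fell with length, being 41.7% under 60 nt and 17.0% from 160 nt on. The part of length in the other differences was not tested; the medians over input and over the knockout IP were higher at control-only than at shared sites in each of the 5 length ranges and each control. In sites from 90 to under 120 nt, for example, the medians over input were 0.90, 0.75 and 0.60 at control-only sites and 0.31, 0.09 and 0.01 at shared sites.

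The share also varied with fold. It was 24.7% where the lowest log2 fold over input was below 0, 57.0% from 1 to 2, 51.2% from 3 to 4, and 32.8% from 4 on, where 22 of 67 sites were control-only. By chromosome it ran between 29.1% on chromosome 7 and 36.4% on chromosome 3. In the first 10% of the gene span, counted from the 5′ end, 23.6% of the sites were control-only, against 31.4% to 37.4% in the later steps of 10%. That first step held 12.6% of control-only and 19.4% of shared sites.

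**Figure D4:**
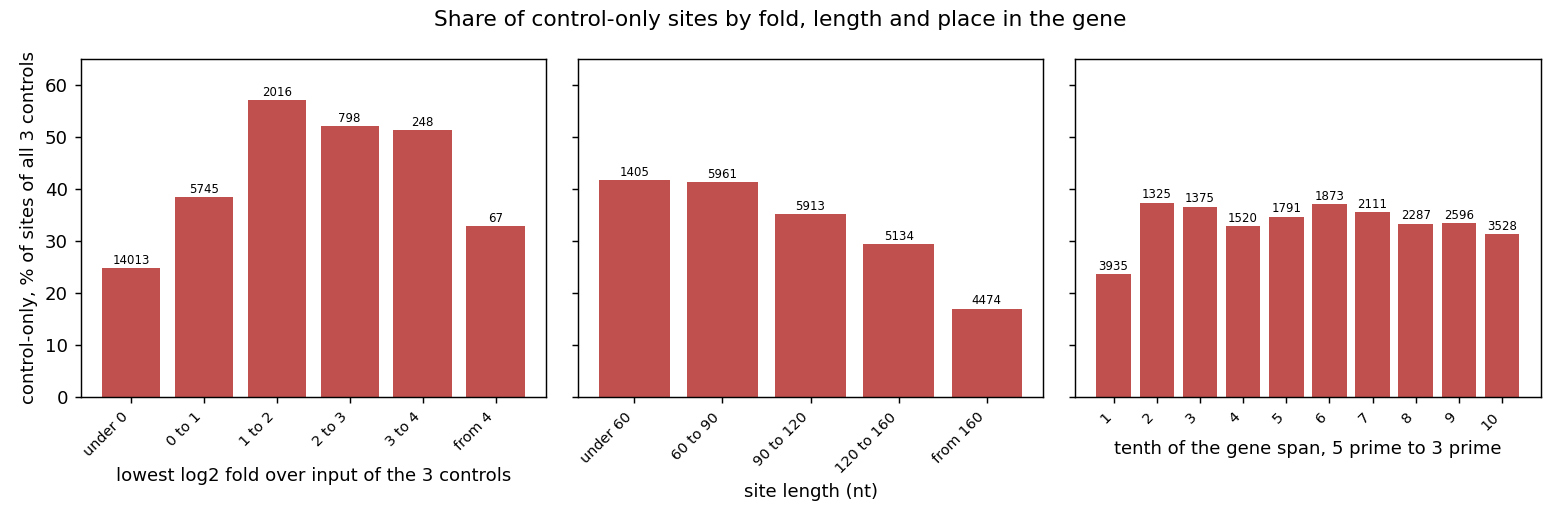
Control-only sites as a percentage of all sites of the 3 controls, by the lowest log2 fold over input among controls (left), by site length in nt (middle) and by steps of 10% of the gene span from the 5′ end (right); the number over each bar counts the sites in it. The share is highest, at 57.0%, for folds from 1 to 2, falls to 17.0% in the longest sites and is 23.6% in the first 10% of genes.

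By gene class, 98.4% of control-only and 95.8% of shared sites lay in protein-coding genes. Small RNAs of at most 500 nt were the class with the lowest share: 23 of their 434 sites were control-only (5.30%), so they made up 0.311% of control-only and 2.65% of shared sites. In long non-coding RNA genes 46 of 170 sites were control-only (27.1%). Exons and introns were not analysed here.

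Control-only sites lay in 3489 of the 5541 genes with a site of all 3 controls (63%), and 1187 of those genes had no shared site. A single control-only site was found in 1898 genes, and at least 10 in 36 genes. An enriched control-only site was found in 80 genes (1.44%), 1 site in each.

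Agap1, a GTPase-activating protein of Arf proteins, held most, with 46 of its 75 sites control-only. It had 269 called peaks in the knockout and 346, 327 and 373 in controls 1 to 3, so the knockout had peaks in the gene, but fewer than any control. The median log2 folds of its control-only sites over the knockout IP were 2.41, 1.30 and 2.32. Maml3, a Notch coactivator, followed with 25 of 52, with 272 knockout peaks against 342, 350 and 319. Smyd3, a lysine methyltransferase, had 19 of 37, Rnf213, a large ubiquitin ligase, 18 of 50, and Trio, a guanine nucleotide exchange factor, 16 of 49. In Trio the knockout had more called peaks than any control, at 366 against 231, 243 and 202.

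Grip1 and Nup210 had a different make-up. In Grip1, the gene of a scaffold protein that binds glutamate receptors, all 14 sites were control-only, and the gene held 9 knockout peaks against 188, 197 and 220 in the controls. In Nup210, which encodes a membrane protein of the nuclear pore, 14 of 16 sites were control-only, with 7 knockout peaks against 68, 40 and 57. The sites were not strong over input: their median log2 folds were 0.70, 0.60 and 0.60 in Grip1 and 0.29, 0.44 and −0.10 in Nup210, while over the knockout IP they were 2.18, 1.88 and 2.38 and 2.60, 2.20 and 2.17. Here the whole gene, not single sites, was nearly without knockout peaks. Eif4g3, a translation initiation factor, Htt, the huntingtin gene, and Msi2, an RNA-binding Musashi protein, had 13 control-only sites each, and 1 of those in Htt was enriched over input in all 3 controls.

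**Figure D5:**
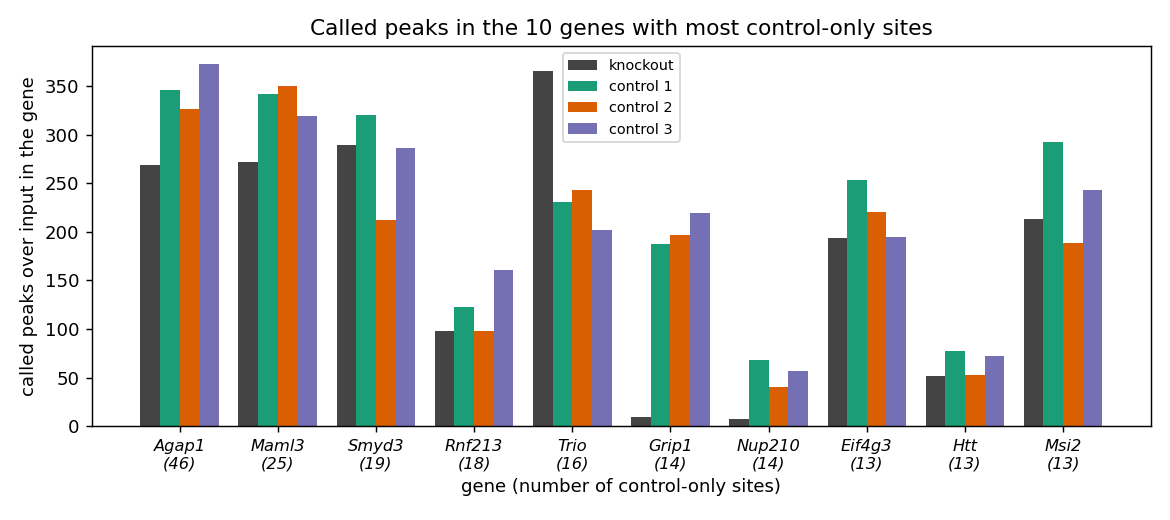
Called peaks over input in the knockout (dark grey) and in controls 1 to 3 (colours) within the 10 genes with most control-only sites, whose number stands under each gene. Knockout bars are below every control bar in Agap1, Maml3, Eif4g3 and Htt, narrowly so in Eif4g3 and Htt. They are level with control 2, the lowest control, in Rnf213 and between the control bars in Smyd3 and Msi2. The knockout bar is above the control bars in Trio, and near 0 in Grip1 (9 peaks) and Nup210 (7 peaks).

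In 96 of the 3489 genes (2.75%) the knockout had no called peak anywhere in the gene, and 3393 genes had at least 1, with a median of 17. The following genes were picked after their values were seen. Ucp2, the mitochondrial uncoupling protein 2, had 7 control-only sites, 0 knockout peaks and 11, 13 and 13 control peaks. The median log2 folds of its sites were 0.44, −0.12 and −0.46 over input and 3.41, 3.38 and 3.75 over the knockout IP, high against the knockout in every control and near input throughout. Slc7a11, the cystine transporter subunit, had 3 sites, with 0 knockout peaks against 11, 9 and 9, and Soat2, a sterol acyltransferase, had 3 sites, with 0 against 8, 8 and 8. Unlike Ucp2, Soat2 was above input, with medians of 3.05, 3.02 and 3.12, but 0 of its sites were enriched over input in all 3 controls. Over the knockout IP its medians were 3.30, 1.88 and 3.39.

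The control-only sites enriched over the knockout IP but not over input in all 3 controls numbered 131, in 122 genes. Ucp2 held 3 of them. Genes with at least 3 other called peaks in a control were read further, 109, 115 and 110 of them in controls 1 to 3. There, those peaks exceeded the library's median log2 fold over the knockout IP by medians over genes of 0.00, 0.05 and 0.17. In 5.50%, 3.48% and 11.8% of these genes they exceeded it by over 1. For the 70 sites enriched over both, the corresponding medians were −0.09, 0.00 and 0.02, and the shares 1.47%, 2.99% and 4.55% of 68, 67 and 66 genes. Over all genes with control-only sites and at least 3 other peaks, the shares were 1.09%, 2.04% and 7.20% of 3201, 3285 and 3181 genes.

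In Zmat3 itself, 7 of 11 sites were control-only, with 38 knockout peaks against 42, 48 and 39. None was enriched over input in a control. The site at chromosome 3, 32343551–32343733, on the minus strand had log2 folds of 0.69, 0.46 and 1.47 over input and 4.30, 4.20 and 4.04 over the knockout IP. The site at 32336241–32336315, near the 3′ end, had −0.67, −0.70 and −1.07 over the knockout IP, below the knockout in all 3 controls. Sites between 14.8% and 71.3% of the gene span were above the knockout IP in each control, and the 2 control-only sites nearest to the 3′ end were below it. All 4 shared sites of Zmat3 were below it in each control too, 1 of them at the 5′ end with −1.40, −0.43 and −2.14. Zmat3 is the deleted gene, and its RNA was still sampled in the knockout.

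In the genes of the p53 inhibitors, the share of control-only sites was near the 32.3% over all sites. Mdm2 had 4 control-only sites of 12 (33.3%), and the one with the highest folds over input (chromosome 10, 117705240–117705427, minus strand) had 2.64, 4.67 and 4.57 over input. Over the knockout IP it had −0.30, 4.59 and 0.73, so control 2 stood far above the others and control 1 was level with the knockout. The controls were split in this way across Mdm2. Its 8 shared sites had −3.38 to −0.92 over the knockout IP in control 1 and −3.22 to −1.85 in control 3. In control 2 they had −0.21 to 0.92. The gene held 52 knockout peaks against 24, 43 and 18 in controls 1 to 3. Mdm4 had 2 control-only sites of 6 (33.3%), at −1.14, −0.44 and −1.28 and at 0.05, −0.62 and 0.82 over input. Its strong site (chromosome 1, 133004395–133004631, minus strand; 6.06, 5.32 and 5.71 over input and 5.66, 5.41 and 5.32 against the knockout IP) was a shared site, because a knockout peak with a log2 fold over input of 0.23 overlapped it by 19 nt. The other shared sites enriched over both in all 3 controls lay in Fnbp4, Pdxdc1, Slc9a8 and again Mdm4. Cdkn1a, Trp53, Cd44 and Ptbp1 had 8, 3, 12 and 2 sites of all 3 controls, and 0 were control-only.

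Hand-written lists of related genes were read against the background of 63% of genes with a control-only site, 1.44% with an enriched one, and 32.3% of sites. Of the genes with a site of all 3 controls, control-only sites were found in 16 of 20 regulators of p53 and in 8 of 18 p53 targets, with 0 enriched in either list. Among regulators, the site with the highest lowest-control fold over input lay in Crebbp, a histone acetyltransferase, with 3.12, 3.02 and 2.99 over input and 4.99, 4.88 and 4.98 over the knockout IP. It missed the rule in control 3 by its fold alone.

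In the core spliceosome, 29 of 38 genes had a control-only site and 5 had an enriched one (13.2%), while 22.4% of the list's sites were control-only. The 5 were Snrpa1, of the U2 particle, Prpf8 and Eftud2, of the U5 particle, Sf3b3, of the branch-site complex SF3b, and Rbm25, which falls outside the rule for named genes. At Snrpa1 the log2 folds over input were 3.71, 6.32 and 3.44, and over the knockout IP 4.41, 5.02 and 4.42. At Prpf8 they were 3.71, 5.23 and 3.24 and 3.99, 4.51 and 4.23, with a knockout peak 3 nt away. Among splicing regulators, 13 of 18 SR protein genes (0 enriched) and 31 of 45 genes of hnRNPs and related factors (1 enriched, Hnrnpab) had one. At Srsf2, which encodes an SR protein, the site had 3.02, 2.92 and 3.77 over input and 3.30, 4.79 and 3.75 over the knockout IP.

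In the list of Ras, MAPK and PI3K signalling, 37 of 51 genes had a control-only site and 4 an enriched one (7.84%), with Src, Map4k4 and Map2k5 among them. Map4k4, a kinase upstream of the JNK cascade, had 3.48, 5.39 and 3.84 over input and 5.35, 6.67 and 4.83 over the knockout IP. Src, a tyrosine kinase, had 4.02, 3.60 and 3.77 over input and 2.72, 3.88 and 3.17 over the knockout IP, where control 1 missed the threshold. DNA repair and replication had 37 of 48 genes, with enriched sites in Rif1 and Timeless, and 42.4% of its sites were control-only, the highest share of the 18 lists. Rif1, a factor of replication timing and break repair, had 5.40, 5.52 and 3.82 over input and 3.69, 4.81 and 4.39 over the knockout IP. Cell cycle and mitosis followed with 40.1% of sites and 37 of 44 genes, of which Aurkb had an enriched site.

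Chromatin regulators had a control-only site in 56 of 64 genes, the highest share of genes (87.5%), and an enriched one in 0. Of the 660 sites of that list, 163 were control-only (24.7%), a smaller share than the 32.3% over all sites. The lowest share of sites was found for the actin cytoskeleton, at 14.1%, with 38 of 53 genes; Limk2, a kinase that inactivates cofilin, and Inf2, a formin, had enriched sites. Limk2 had 3.37, 3.86 and 4.55 over input and 5.24, 6.47 and 5.54 over the knockout IP. Cell adhesion and extracellular matrix had 16.2% of sites and 24 of 32 genes, with Afdn, a junction scaffold, as its enriched one. These genes carry many sites each, 799 and 579 in the lists, most of them shared.

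Ribosomal protein genes had a control-only site in 20 of 46, with Rpl32 enriched at 3.96, 6.08 and 4.55 over input and 4.24, 5.36 and 4.54 over the knockout IP. Translation factors and tRNA synthetases had 39 of 56 genes and RNA decay factors 24 of 35, with 0 enriched in both. Vesicle traffic had 36 of 56 genes, with Cltc enriched; nuclear pore and mRNA export had 35 of 49, with Rcc1, the exchange factor of Ran, at 4.96, 6.32 and 4.06 over input and 6.24, 6.60 and 6.04 over the knockout IP. Glycolysis and mitochondrial energy genes had 27 of 44, with Pck2 enriched. Of 8 nuclear and long non-coding RNAs with sites, 1 had control-only sites, Pvt1, near the Myc gene, where 0 of its control-only sites were enriched.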

How the data were processed

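The 8 samples gave 7 peak lists, without headers, on mm10 (per the submitters' processing notes). An IP was set against input in 4 lists, and a control IP against the knockout IP in 3. Each peak carried a −log10 p-value deposited by the authors, capped at 400 and 0 at every fold below 0, and a log2 fold deposited by the authors; both units were read from the values. For the aligner, the peak caller, duplicate removal and scaling, the names and settings were not given in the sources used here. Without counts in the lists, depth is unknown and counting intervals could not be had.

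Python 3.11.15, pandas 2.3.3, NumPy 2.4.6 and SciPy 1.17.1 were used. The value of a library at a site was that of its overlapping peak with the highest log2 fold. Genes came from RefSeq GRCm38.p6 spans: a small RNA of at most 500 nt by overlap, otherwise the gene holding the midpoint; spans carry no exons. Of 968 listed gene names 964 matched. Strand was known from promoter or microRNA entries for 5928 control-only sites, and 99.7% of them lay on the strand of the gene. Merging, overlaps and distances were tested on simulated data. Coordinates are 1-based.

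The members and lists were chosen with earlier results of these data known. Named were the 20 sites with the highest lowest-control fold over input, the 10 genes with most control-only sites, up to 4 genes per list, Cdkn1a, Cd44, Mdm2, Mdm4, Ptbp1, Trp53 and Zmat3, and the 3 sites nearest to the rule's edge on either side; sites with a printed sequence were named from the sequence tables, and the text says where other genes were picked after their values were seen. Of the 20 sites, 1 is not reported here by name. Alternatives changed the overlap, strand, merging, support, thresholds, site value and gene assignment and left out each control. The control left out of its own membership (reported only as how often it had a peak), genes on the site's strand, and knockout peaks above input only were alternatives chosen after seeing the data.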

Additional observations from a re-analysis of the deposited data

How the results depend on the processing

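Of 116 values recomputed under alternatives, named sites apart, 74 stayed within the range set for them. That range was 1.5 times the count for counts and the spread of the controls for other values, with 2 exceptions. Gene class shares and position in the gene had an interval over sites, which are not replicates. Site length had the SD of the medians with each control left out. Of the lowest-control folds of named sites, 71 of 80 stayed within their range, where leaving out a control that is not the lowest cannot change the value. The number of control-only sites was 12635 (55.2% of sites) where knockout peaks had to cover at least 50% of a site, 17488 (76.4%) where only knockout peaks above input counted, and 36284 (52.6%) with a peak of at least 2 controls; with no knockout peak within 50 nt the share was 28.4%. With knockout peaks covering at least 50% of a site, the median log2 fold of control-only sites was 0.50 over input and 1.13 over the knockout IP (shared sites 0.19 over the knockout IP), and 0.19 and 0.85 with knockout peaks above input only (shared 0.70 and 0.12). Under this last setting the order over input turned, control-only sites being the lower. Minus the median of all called peaks, the medians were 0 over input and 0.51 over the knockout IP at control-only sites and −0.55 and −0.67 at shared sites; subtracting 1 number per library moves all sites alike, so the order is unaffected. Enriched control-only sites numbered 22 over input and 12 over both at a log2 fold of 4 or more, 39 and 36 at a −log10 p-value of at least 5, and 212 over input in at least 2 controls. Leaving out each control gave 15460 to 18563 sites, 43.7% to 45.6% of sites, 91 to 176 enriched over input and 74 to 140 over both; the counts without control 1 were 134 and 119, and without control 3 176 and 140. The medians were then 0.62 to 0.75 over input and 1.34 to 1.36 over the knockout IP at control-only sites, and 0.089 to 0.31 and 0.28 to 0.34 at shared sites. With genes on the site's strand only, protein-coding genes held 81.1% of control-only and 80.8% of shared sites. This setting left out every gene whose strand was not known, so the lower shares do not count sites on the opposite strand. Strand was known for 5928 of the 7235 control-only sites assigned to a single gene, and 99.7% of those 5928 lay on the gene's strand. Single called peaks had a median length of 61 nt in control-only and 69 nt in shared sites. In all genes, control-only sites lay at a median of 58.4% of the gene span and shared sites at 55.7%. In genes with at least 5 sites the order turned, at 59.2% for control-only and 61.5% for shared sites. The causes of these changes were not tested, apart from the fewer controls, other peaks or fewer genes each setting uses. No paired analysis was possible because no test compared groups of samples, the knockout has 1 library and the inputs have no list of their own.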

Other observations

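The sex chromosomes lie outside the rule. On chromosome X, 130 of 526 sites of all 3 controls had no called knockout peak (24.7%), with median log2 folds over input of 0.90, 0.60 and 0.60 in controls 1 to 3. On chromosome Y, 10 of 15 sites had none (66.7%), with 11 called peaks in the knockout and 32, 37 and 30 in the controls. Their median log2 folds were 4.93, 3.85 and 3.82 over the knockout IP and −1.10, −0.76 and −1.63 over input, so they were high against the knockout and below input in every control.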
